A study of Homo sapiens with 12 samples.

Results

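The genes described here encode the proteins of the mitochondrial ribosome. They were taken as the protein-coding genes of the deposited table whose GENCODE 29 symbol begins with MRPL or MRPS and a digit, and 78 of the table's 58174 genes met this rule, 49 named for the large subunit (MRPL) and 29 for the small subunit (MRPS). RNA came from HCT116, a human colorectal carcinoma cell line, exposed to dolastatin 15, a peptide that acts on tubulin and stops microtubules from forming. The 6 groups of 2 libraries each were 20 nM at 16 h, 100 nM at 16 h, solvent (DMSO) at 16 h, 20 nM at 24 h, 100 nM at 24 h and solvent at 24 h. All cells carried the same final share of DMSO, and the design asks how each dose differs from solvent at each time.

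Mitochondrial ribosomes translate the few proteins encoded in mitochondrial DNA, which are subunits of the respiratory chain and of ATP synthase. Their ribosomal RNA is mitochondrial, but all of their proteins are encoded in the nucleus, made in the cytosol and imported. The large subunit joins amino acids and is held at the inner membrane, and the small subunit binds mRNA and checks the match of codon and tRNA. Some of these proteins have bacterial counterparts and others occur only in mitochondria. Symbols do not always give the subunit: MRPS30 and MRPS18A sit in the large subunit, and MRPS36 is now assigned to the 2-oxoglutarate dehydrogenase complex.

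The values were FPKM, counts of fragments divided by the length of the transcript and by all mapped fragments, and all 78 members passed the filter of at least 1 FPKM in at least 2 of 12 libraries, with values from 11.2 to 334 FPKM. FPKM sums per library ran from 911720 to 1049886, and genes of the mitochondrial chromosome held between 17.9% and 25.8% of the sum. Low values of single-exon genes fell in steps of whole reads, and from those steps the deepest library had 1.74 times the reads of the shallowest. All 7 epithelial markers were above 1 FPKM in every library (EPCAM among them), while the 4 leukocyte and 3 endothelial markers stayed at or below 0.9 FPKM. COL1A1, at up to 4.34 FPKM, was the 1 of 4 fibroblast markers that reached 1 FPKM, and HBA1, at up to 2.02 FPKM, was the 1 of 2 erythroid markers to do so.

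In the 4 solvent libraries the members were abundant. The median over large subunit genes was 95.2 FPKM (range 13.02 to 315) and that over small subunit genes 72.3 FPKM (range 12.6 to 199), beside 16.5 FPKM for all tested protein-coding genes. MRPL12, the protein of the flexible stalk that contacts translation factors, had the highest mean at 315 FPKM, followed by MRPL3 at 202 FPKM and MRPS34 at 199 FPKM. MRPS17 at 12.6 FPKM, MRPL50 at 13.02 FPKM and MRPS14 at 19.5 FPKM had the lowest means. FPKM is scaled to transcript length, so these levels can be set side by side between genes.

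Dolastatin 15 was accompanied by small increases in members of both subunits. At 20 nM for 24 h, however, small subunit genes rose in a smaller share than all tested genes. More members rose at 24 h than at 16 h, and the share of all tested genes that rose was also larger at 24 h. Tests used limma on log2(FPKM + 1) over all 13458 tested genes with Benjamini-Hochberg adjustment, and a gene passed at an adjusted p under 0.05. At 20 nM for 16 h, 11 of 78 members rose and 0 fell, where 6.78% of all tested genes rose and 11% fell (17.7% in all). At 100 nM for 16 h, 18 members rose and 0 fell, beside 9.16% and 14.7% of all genes (23.8% in all). At 20 nM for 24 h, 22 rose and 1 fell, beside 14.7% and 14.1% (28.8% in all). At 100 nM for 24 h, 38 rose and 2 fell, beside 15.4% and 18.4% (33.8% in all). At an unadjusted p under 0.05, 24, 26, 33 and 46 members were higher in the same order (13.2%, 14.6%, 20.6% and 20.1% of all genes) and 2, 1, 3 and 2 were lower (18.9%, 22.1%, 20.1% and 24.5%). In bulk RNA, a change in the number of cells carrying a transcript and a change in its amount per cell cannot be told apart.

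The sizes were modest. The median difference over the 78 members, on the log2(FPKM + 1) scale, was 0.07 at both doses at 16 h, 0.11 at 20 nM for 24 h and 0.16 at 100 nM for 24 h, while the median over all tested genes lay between -0.03 and 0.002. Members with a difference above 0 numbered 62, 65, 62 and 69 of 78 in the same order. The largest increase that passed was MRPL17 at 20 nM for 24 h (0.59), and the largest decrease was MRPS6 in the same comparison (-0.24).

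**Figure D1:**
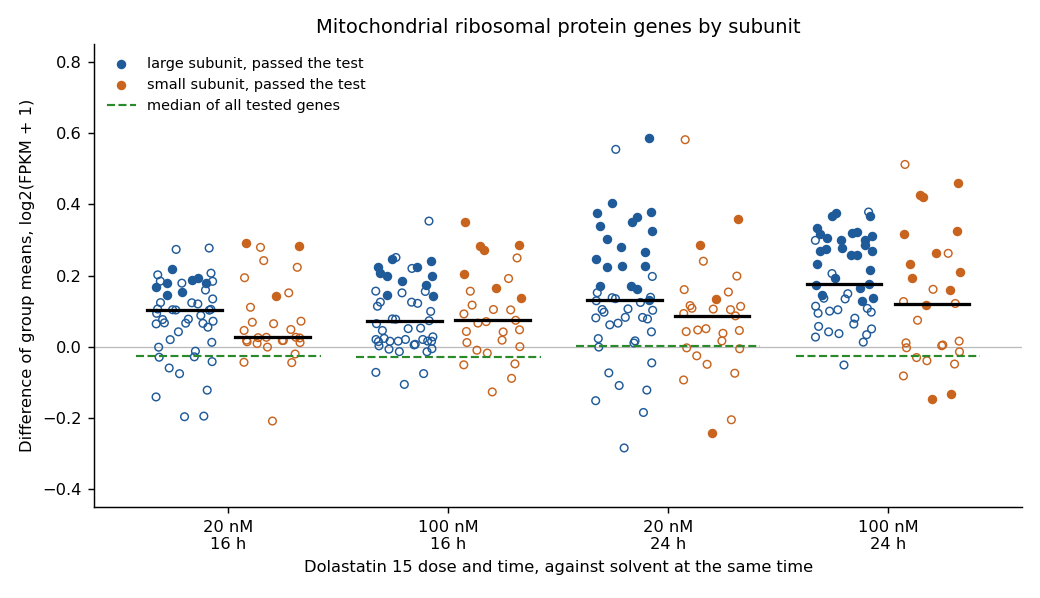
Difference of each member from solvent at the same time, on the log2(FPKM + 1) scale, for the 4 dose and time groups, with large subunit genes in blue and small subunit genes in orange. Filled points passed the test, open points did not, black bars are medians of each subunit, and the dashed green line is the median of all 13458 tested genes, which lies below both bars in each group.

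How many members passed, and at 20 nM for 24 h also the direction, depended on how the libraries were scaled. With every library rescaled to the same FPKM sum, 10 members rose at 20 nM and 7 at 100 nM for 16 h, 7 rose and 17 fell at 20 nM for 24 h, and 15 rose and 3 fell at 100 nM for 24 h. That rescaling moved the median of all tested genes at 20 nM for 24 h from 0.002 to -0.16. Relative to the median of all genes, the members' median was 0.10 before and 0.085 after it, and the 100 nM values at 24 h were 0.18 and 0.17. Mitochondrial genes held 23.8% and 25.8% of the FPKM sum in the 20 nM libraries at 24 h and 17.9% and 18.6% in solvent at 24 h. With the sum taken over nuclear genes alone, 13 members rose and 6 fell at 20 nM for 24 h and 23 rose and 2 fell at 100 nM. Directions below are for the deposited scale, and a scaling that ended a call of a member described below is named with it. Calls of genes that are not members, such as neighbours and related lists, are given on the deposited scale only.

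**Figure D2:**
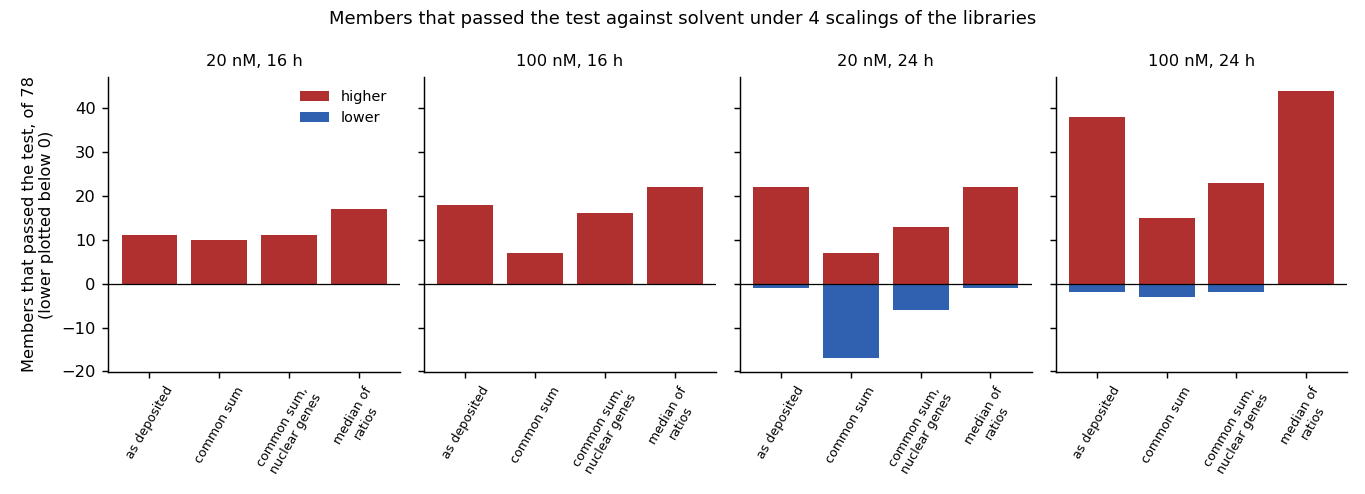
Number of the 78 members that passed the test against solvent, higher above 0 and lower below 0, for FPKM as deposited, for libraries rescaled to a common sum over all or over nuclear genes, and for median-of-ratios scaling. The 20 nM group at 24 h goes from 22 higher and 1 lower to 7 higher and 17 lower under the common sum.

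With 2 libraries a group, single libraries weighed on the counts. At 20 nM for 24 h the library numbered 7 was above library 8 for 64 of 78 members, with a median gap of 0.09 beside 0.009 over all genes. Without library 7, 12 members rose and 4 fell at that dose and time, and without library 8, 33 rose and 1 fell. The count at 100 nM for 24 h ranged from 18 without library 9 to 45 without library 7 or library 8. At 16 h it ranged from 1 without library 2 to 16 without library 7 or library 8 for 20 nM, and from 3 without library 6 to 21 without library 7 or library 8 for 100 nM. Calls that were kept whichever of the 12 libraries was left out, and under all 3 other scalings, numbered 1 at 20 nM and 1 at 100 nM for 16 h, 8 at 20 nM for 24 h and 15 at 100 nM for 24 h.

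Members of both subunits rose in every comparison with solvent, and both members that fell, MRPS6 and MRPS27, belong to the small subunit. At 20 nM for 16 h, 8 of 49 large and 3 of 29 small subunit genes rose, beside 6.78% of all tested genes. At 100 nM for 16 h the counts were 11 and 7, beside 9.16% of all genes. At 20 nM for 24 h, 19 large subunit genes rose and 0 fell, while 3 small subunit genes rose and 1 fell. Of all genes, 14.7% rose and 14.1% fell there. The 3 of 29 small subunit genes that rose were a smaller share than the 14.7% of all genes. The share of small subunit genes called in either direction, 13.8%, was also below the 28.8% of all genes. At 100 nM for 24 h, 27 large subunit genes rose and 0 fell, and 11 small subunit genes rose and 2 fell. Beside these, 15.4% of all genes rose and 18.4% fell. The median difference of the large subunit minus that of the small subunit was 0.076, -0.0012, 0.043 and 0.056 in the order 20 nM and 100 nM at 16 h, then 20 nM and 100 nM at 24 h. Measured in each library instead, as the median of the large minus that of the small subunit after each gene was centred on its mean log2 level, the gap stood 0.032, 0.013, 0.084 and 0.085 above solvent, with an SD of 0.016 between libraries of a group (2 libraries in each of 6 groups). The order of the 4 comparisons thus differed between these measures. In solvent the library measure was itself lower at 24 h (-0.046) than at 16 h (-0.017), and this enters the gaps at 24 h. In treated groups it was 0.015 with 20 nM and -0.0037 with 100 nM at 16 h, and 0.039 at both doses at 24 h. The difference of medians for solvent at 24 h against 16 h was -0.056. No test is given for these medians, because the members were chosen with results known.

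Summed FPKM gives the level of each subunit in single libraries. Large subunit genes summed to 4868 and 4800 FPKM in solvent at 16 h, 5102 and 5153 with 20 nM, and 5202 and 5095 with 100 nM. At 24 h the sums were 4668 and 4678 FPKM in solvent, 5317 and 4955 with 20 nM, and 5350 and 5315 with 100 nM. Every treated library was above both solvent libraries of its time. The group means stood 6.06%, 6.50%, 9.84% and 14.1% above solvent in the order used for the medians.

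Small subunit genes summed to 2409 and 2418 FPKM in solvent at 16 h, 2518 and 2521 with 20 nM, and 2607 and 2558 with 100 nM. At 24 h they summed to 2307 and 2339 FPKM in solvent, 2547 and 2369 with 20 nM, and 2560 and 2542 with 100 nM, so the lower 20 nM library lay close to solvent. The group means stood 4.38%, 6.98%, 5.72% and 9.80% above solvent. From 16 h to 24 h the mean small subunit sum fell in solvent (2414 to 2323), with 20 nM (2520 to 2458) and with 100 nM (2582 to 2551). The mean large subunit sum fell in solvent (4834 to 4673), was near level with 20 nM (5127 and 5136) and rose with 100 nM (5149 to 5333). The lower solvent level at 24 h thus enters the percentages at that time. Under the common FPKM sum, the 20 nM means at 24 h fell below solvent for both subunits (-0.053 for large and -0.11 for small, as log2 ratios of the sums).

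The ratio of the large to the small sum does not depend on the scaling of a library. It was between 1.98 and 2.02 in the 4 solvent libraries and between 1.99 and 2.04 in the 4 treated libraries at 16 h. In the 4 treated libraries at 24 h it lay between 2.088 and 2.092, above all 8 others. With MRPS30 and MRPS18A counted as large and MRPS36 left out, the ratio was 2.20 to 2.26 in solvent, 2.19 to 2.26 in treated libraries at 16 h and 2.32 to 2.33 in treated libraries at 24 h. Without the most abundant members MRPL12, MRPL3 and MRPS34, the 24 h treated libraries were again above the other 8 (2.02 to 2.05 against at most 2.00). Leaving out the most abundant members was tried after the values had been seen.

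**Figure D3:**
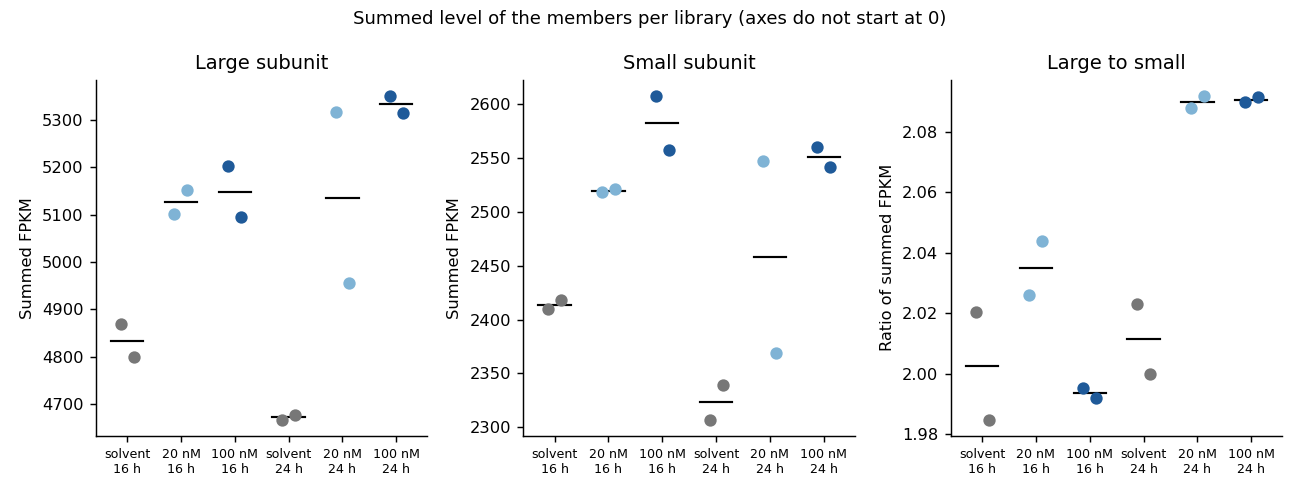
Summed FPKM of the 49 large and 29 small subunit genes and their ratio in each of the 12 libraries, by group, with a line at the mean of 2 libraries and axes that do not start at 0. The 4 treated libraries at 24 h share a ratio near 2.09, while solvent libraries and treated libraries at 16 h lie at or below 2.04.

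The rise of the large subunit sum was shared by many genes. At 100 nM for 24 h, 48 of 49 large subunit genes had a higher mean than in solvent, and the 5 with the largest FPKM difference (MRPL20, MRPL18, MRPL33, MRPL34 and MRPL10) made up 25.7% of the rise. Among small subunit genes 21 of 29 had a higher mean, and the top 5 (MRPS18C, MRPS12, MRPS23, MRPS33 and MRPS15) made up 56.1%. In the other comparisons with solvent, 38 to 42 of 49 large subunit genes had a higher mean. The top 5 of each then made up 36.9% to 40.1% of the large subunit rise and 58.3% to 75.9% of the small subunit rise. By origin, 19 of 29 large subunit proteins with a bacterial counterpart rose at 100 nM for 24 h (median difference 0.23), beside 7 of 19 large subunit proteins found only in mitochondria (median 0.11). For the small subunit the counts were 5 of 15 with 1 lower (median 0.016), and 4 of 9 with 1 lower (median 0.12), so the medians were in the opposite order. Of all tested genes, 15.4% rose and 18.4% fell at 100 nM for 24 h. At 16 h and 100 nM the origins gave 10 of 44 and 8 of 28 over both subunits, beside 9.16% of all genes that rose. In the same order of origins, 13.8% and 21.1% of large subunit genes rose at 20 nM for 16 h, beside 6.78% of all genes. At 20 nM for 24 h, 13 of 29 and 6 of 19 did, beside 14.7% of all genes. The order of the shares thus differed between comparisons.

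Only MRPL9, MRPL18 and MRPL40 of the 78 members rose in all 4 comparisons with solvent; 2.07% of all tested genes did so. Both doses at 1 time share the solvent libraries, so these comparisons are not independent. A further 8 members rose in 3 of them (MRPL20, MRPL21, MRPL32, MRPL44, MRPS15, MRPS17, MRPS23 and MRPS33), beside 2.90% of all genes, and 27 members passed in none.

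MRPL9 is a large subunit protein with a bacterial counterpart. It stood at 93.4 and 92.0 FPKM in solvent at 16 h, 105 and 105 FPKM with 20 nM, and 106 and 108 FPKM with 100 nM. At 24 h the values were 84.6 and 87.7 FPKM in solvent, 111 and 109 FPKM with 20 nM, and 113 and 110 FPKM with 100 nM. All 8 treated libraries were above all 4 solvent libraries, as they also were for MRPL18 and MRPL40. The differences in log2(FPKM + 1) were 0.18, 0.21, 0.35 and 0.37 (SE 0.035 each), with limma adjusted p of 0.0097, 0.0035, 0.00027 and 0.00014. The 20 nM call at 16 h was lost without library 1, 2 or 6 (adjusted p up to 0.065), and the other 3 calls were kept whichever library was left out.

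MRPL40, a large subunit protein found only in mitochondria that lies in the central protuberance, had 44.7 and 45.3 FPKM in solvent at 16 h, 51.9 and 50.8 with 20 nM, and 51.3 and 48.4 with 100 nM. At 24 h it had 47.3 and 47.7 FPKM in solvent, 58.8 and 60.6 with 20 nM, and 60.6 and 63.2 with 100 nM. Treated and solvent libraries did not overlap at either time. Its mean was 25.7% and 30.4% above solvent at 24 h (log2 differences 0.32 and 0.38, SE 0.042, limma adjusted p 0.00091 and 0.00033), and both 24 h calls were kept without any 1 library. The 16 h differences were 0.19 and 0.15, and those calls were lost without library 1, 2, 5 or 6 at 20 nM (adjusted p up to 0.11) and without library 1, 2, 3, 5, 6, 11 or 12 at 100 nM (adjusted p up to 0.19), the latter also under the common FPKM sum (0.11) and the nuclear sum.

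MRPL18, a large subunit protein with a bacterial counterpart that binds ribosomal RNA, gave 174 and 169 FPKM in solvent at 16 h, 190 and 190 with 20 nM, and 183 and 196 with 100 nM. The 24 h values were 167 and 170 FPKM in solvent, 204 and 191 with 20 nM, and 210 and 208 with 100 nM. Treated libraries were above solvent at both times. The 24 h differences were 0.23 and 0.31 (SE 0.043, limma adjusted p 0.0055 and 0.00093). Under the common FPKM sum the 20 nM difference at 24 h was 0.038 and did not pass. The 16 h calls (0.15 and 0.14) were lost without library 1, 2, 5, 6, 9, 10, 11 or 12 at 20 nM (adjusted p up to 0.19), and without any of these or library 4 at 100 nM (up to 0.22), the latter also under the common FPKM sum.

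**Figure D4:**
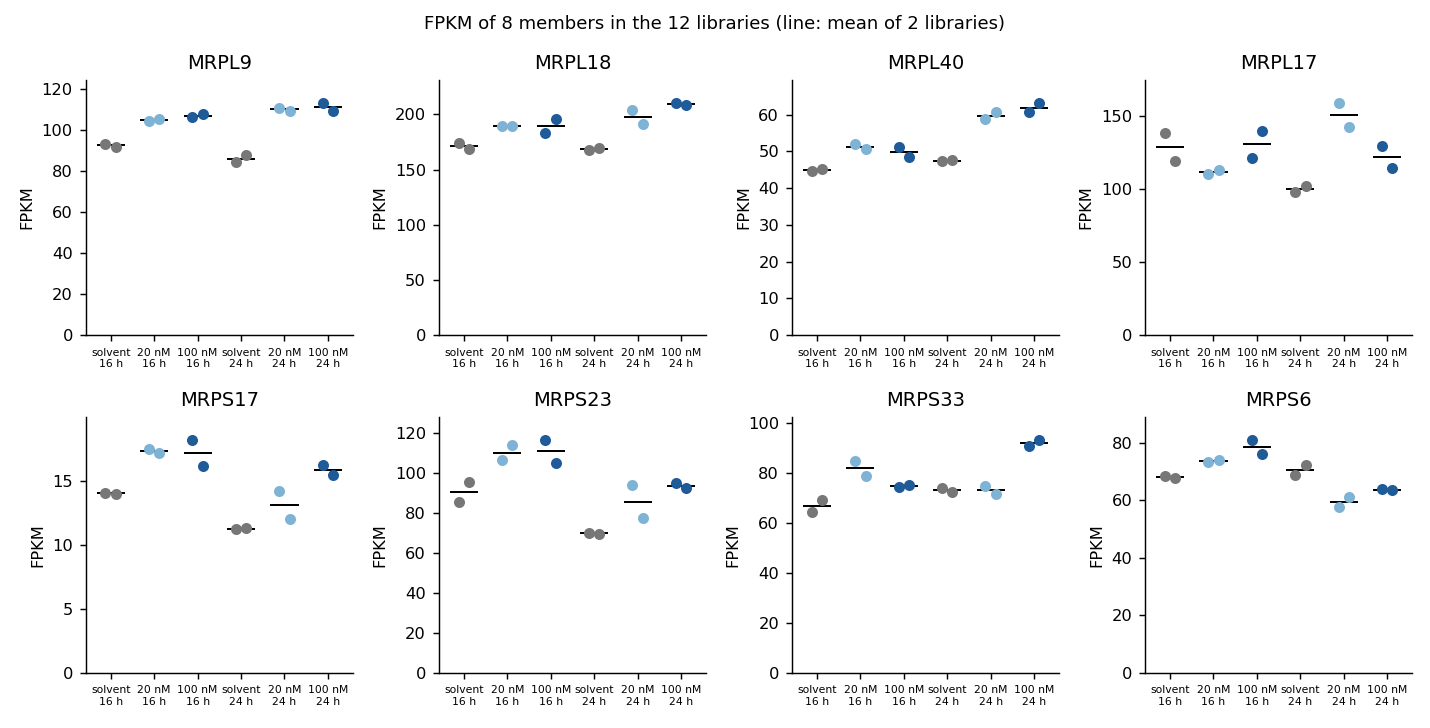
FPKM of MRPL9, MRPL18, MRPL40, MRPL17, MRPS17, MRPS23, MRPS33 and MRPS6 in each of the 12 libraries (points) with the mean of 2 libraries (line), by group, on axes that start at 0. MRPL9, MRPL18 and MRPL40 are higher in all 8 treated libraries, while MRPS6 is above solvent at 16 h and below it at 24 h.

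Among the other large subunit genes, MRPL17 stood apart at 20 nM. MRPL17 is a protein with a bacterial counterpart near the exit of the peptide tunnel. It had 139 and 119 FPKM in solvent at 16 h, 111 and 113 with 20 nM, and 121 and 140 with 100 nM, so the groups at 100 nM and solvent overlapped. After 24 h its values were 98.0 and 102 FPKM in solvent, 159 and 143 with 20 nM, and 130 and 115 with 100 nM. The mean at 20 nM for 24 h was 50.8% above solvent (log2 difference 0.59, SE 0.096, limma adjusted p 0.0027), and at 16 h the difference was -0.20 (adjusted p 0.20). The difference between those effects, 0.78, passed the test (adjusted p 0.0090). At 100 nM for 24 h the difference was 0.29 (adjusted p 0.047), a call lost without library 1, 2, 9, 11 or 12 (adjusted p up to 0.25) and under a common sum over all or nuclear genes.

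MRPL33, MRPL21 and MRPL47 rose at 24 h at both doses and kept those calls without any 1 library. MRPL33 stood at 95.0 and 107 FPKM in solvent, 136 and 132 with 20 nM, and 124 and 137 with 100 nM (log2 differences 0.40 and 0.37, SE 0.063). MRPL21 stood at 97.1 and 96.9 FPKM in solvent, 132 and 121 with 20 nM, and 120 and 119 with 100 nM (0.38 and 0.30, SE 0.053). MRPL47, at the tunnel exit, stood at 71.1 and 68.3 FPKM in solvent, 88.2 and 91.9 with 20 nM, and 90.7 and 84.1 with 100 nM (0.36 and 0.32, SE 0.052). In all 3 genes each treated library was above both solvent libraries. MRPL21 also rose at 100 nM for 16 h (0.18), a call kept in 3 of 12 omissions and lost under the common FPKM sum. MRPL54 rose at 20 nM for 24 h (0.38, SE 0.11, limma adjusted p 0.030), with 62.9 and 50.5 FPKM against 40.8 and 45.5 in solvent, and lost the call without library 7, 11 or 12 (adjusted p up to 0.17) and under the common FPKM sum.

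MRPL20 and MRPL32 rose at 16 h at both doses and again at 100 nM for 24 h. MRPL20 had 183 and 195 FPKM in solvent at 16 h, 211 and 221 with 20 nM, and 226 and 216 with 100 nM, with no overlap. At 24 h it had 180 and 182 FPKM in solvent, 208 and 191 with 20 nM, and 227 and 229 with 100 nM, where the mean was 26.2% above solvent (log2 difference 0.33, SE 0.050, limma adjusted p 0.0013). The MRPL20 calls at 16 h were lost without library 1, 2 or 5 at 20 nM (adjusted p up to 0.16) and without library 3 or 5 at 100 nM (up to 0.084). MRPL32, whose protein is cut to its mature form inside mitochondria by the m-AAA protease, had 108 and 108 FPKM in solvent at 16 h, 124 and 128 with 20 nM, and 122 and 124 with 100 nM (log2 differences 0.22 and 0.19, SE 0.043). The MRPL32 calls at 16 h were lost without library 2 or 5 at 20 nM and without library 3, 4, 5 or 6 at 100 nM, with adjusted p of at most 0.078 in those fits, and its call at 100 nM for 24 h (0.15) without library 9, 10 or 11 (up to 0.19), under the common FPKM sum (0.050) and under the nuclear sum. MRPL44, which carries a domain like that of RNase III, rose in both 16 h comparisons (0.18 and 0.25) and at 100 nM for 24 h (0.19). The MRPL44 call at 20 nM was lost without library 1, 2, 5, 6, 9, 10, 11 or 12, and those at 100 nM without library 3 or 6 at 16 h and without library 9, 10, 11 or 12 at 24 h (adjusted p up to 0.19, 0.060 and 0.092). The 24 h call was also lost under the common FPKM sum (0.10) and the nuclear sum.

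Small subunit genes that rose were fewer, out of 29 genes beside 49 for the large subunit. At 100 nM for 16 h their share, 24.1%, was near the 22.4% of the large subunit. Several had their largest difference at 100 nM for 24 h. MRPS17, the least abundant member, had 14.1 and 14.0 FPKM in solvent at 16 h, 17.5 and 17.1 with 20 nM, and 18.2 and 16.2 with 100 nM. After 24 h its values were 11.2 and 11.3 FPKM in solvent, 14.2 and 12.0 with 20 nM, and 16.2 and 15.4 with 100 nM. Its mean at 100 nM for 24 h was 40.9% above solvent (log2 difference 0.46, SE 0.079, limma adjusted p 0.0026), and that call was kept without any 1 library. From 16 h to 24 h its mean fell both in solvent and with 100 nM. The lower solvent level at 24 h, a difference that did not pass the test, thus enters this rise. At 16 h the differences were 0.28 and 0.27, and the calls were lost without library 1, 2, 5, 6, 9, 10, 11 or 12 at both doses and, at 100 nM, also without library 3 (adjusted p up to 0.16 and 0.20) and under the common FPKM sum. MRPS17 overlaps NIPSNAP2 on the same strand, so its reads may be shared.

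MRPS12, part of the decoding centre, had 85.3 and 84.9 FPKM in solvent at 24 h, 98.2 and 78.8 with 20 nM, and 120 and 110 with 100 nM. The 20 nM libraries fell on either side of solvent, and both 100 nM libraries were above all others at that time. Solvent at 16 h reached 109 FPKM, close to the lower 100 nM library at 24 h. The lower solvent level at 24 h, a difference that did not pass the test, thus enters the difference from solvent. The log2 difference at 100 nM was 0.43 (SE 0.086, limma adjusted p 0.0055) from solvent and 0.38 (adjusted p 0.045) from 20 nM, the latter kept with library 7 left out and lost with any other left out (adjusted p up to 0.23). MRPS12 overlaps SARS2 on the opposite strand, which was lower at 100 nM for 24 h (-0.24, adjusted p 0.0069), and the strand setting of the counting is not given in the sources used here.

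MRPS23 and MRPS33, small subunit proteins found only in mitochondria, rose in 3 comparisons each. MRPS23 had 69.9 and 69.5 FPKM in solvent at 24 h, 93.9 and 77.4 with 20 nM, and 94.8 and 92.5 with 100 nM (log2 differences 0.29 and 0.42, SE 0.091). Its level in solvent was itself lower at 24 h than at 16 h (85.6 and 95.6 FPKM), a difference of -0.37 with a limma adjusted p of 0.049. The 20 nM call at 24 h was lost without library 1, 2, 7, 9, 10, 11 or 12 (adjusted p up to 0.21), under the common FPKM sum (0.10) and under the nuclear sum, and the call between solvent times with any library but 7 or 8 left out (up to 0.20), as was its call at 100 nM for 16 h (0.29, up to 0.25). Both of these were also lost under the common FPKM sum.

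MRPS33 had 64.3 and 69.4 FPKM in solvent at 16 h, 84.96 and 79.0 with 20 nM, and 74.6 and 75.4 with 100 nM. At 24 h it had 74.0 and 72.6 FPKM in solvent, 74.8 and 71.6 with 20 nM, and 91.0 and 93.2 with 100 nM. The 20 nM libraries were thus above solvent at 16 h (0.29, SE 0.050, limma adjusted p 0.0054) and on both sides of it at 24 h (-0.0026, adjusted p 0.98). The difference between these effects, -0.29, passed (adjusted p 0.031). That call was lost without library 1, 5, 8, 9, 10, 11 or 12 (adjusted p up to 0.11), and the rise at 100 nM for 16 h (0.16) without library 3, 4, 5, 9, 10, 11 or 12 (up to 0.24), under the common FPKM sum (0.13) and under the nuclear sum, while the rises at 20 nM for 16 h and at 100 nM for 24 h were kept in all 12. MRPS15, a protein with a bacterial counterpart, rose by less (0.14, 0.14 and 0.19 in its 3 comparisons), and only its 24 h call was kept in all 12 omissions. All 3 MRPS15 calls were lost under the common FPKM sum (0.098 at 24 h).

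MRPS25 and MRPS26, also found only in mitochondria, were among the 3 members with the largest rises that passed the test at 100 nM for 16 h. MRPS25 had 41.6 and 43.9 FPKM against 33.7 and 32.9 in solvent (log2 difference 0.35, SE 0.088, limma adjusted p 0.020), and MRPS26 had 124 and 123 FPKM against 103 and 99.8 (0.28, SE 0.077, adjusted p 0.028). Neither gene's treated and solvent libraries overlapped. Both calls were lost without library 3, 4, 5 or 6 (adjusted p up to 0.10 for MRPS25 and 0.12 for MRPS26), and that of MRPS26 also under the common FPKM sum. Both genes also rose at 100 nM for 24 h (0.26 and 0.23), calls kept in 3 and 2 of 12 omissions and lost under the common FPKM sum and the nuclear sum.

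MRPS6 was the member that turned with time. It had 68.4 and 67.8 FPKM in solvent at 16 h, 73.3 and 74.0 with 20 nM, and 81.0 and 76.2 with 100 nM. After 24 h its values were 68.9 and 72.4 FPKM in solvent, 57.9 and 61.4 with 20 nM, and 63.9 and 63.5 with 100 nM. The 100 nM libraries were above solvent at 16 h (log2 difference 0.20, limma adjusted p 0.013) and below it at 24 h (-0.15, adjusted p 0.035), and the 20 nM libraries were below it at 24 h (-0.24, adjusted p 0.0051). The change of the effect from 16 h to 24 h was -0.35 at each dose (SE 0.064, adjusted p 0.011 and 0.012), and both of those calls were kept in all 12 omissions and under all 3 other scalings. The call at 100 nM was lost without library 3, 5 or 6 at 16 h (up to 0.080), and at 24 h without library 1, 2, 5, 6, 9, 10, 11 or 12 (up to 0.19) and under median-of-ratios scaling. MRPS6 shares its locus and strand with SLC5A3, so part of the reads may belong to that gene. MRPS27, a small subunit protein with pentatricopeptide repeats, was the other member that fell (100 nM for 24 h, -0.13, adjusted p 0.045, with 70.6 and 72.9 FPKM against 79.1 and 78.3). Its call was lost with any library but 7 or 8 left out (adjusted p up to 0.20) and under median-of-ratios scaling.

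The remaining named members moved less or not measurably. Of the MRPS18 paralogs, MRPS18B rose at 24 h (0.14 at 20 nM and 0.21 at 100 nM, limma adjusted p 0.047 and 0.0063), but the 20 nM difference was -0.051 under the common FPKM sum, and its call was lost under all 3 other scalings and kept in 3 of 12 omissions. The 100 nM call of MRPS18B was lost under the common FPKM sum (0.12). MRPS18C ranged from 76.2 to 168 FPKM over the 12 libraries and passed in no comparison, although its 24 h differences were 0.58 and 0.51 (SE 0.20, adjusted p 0.055 and 0.074). MRPS18A differed from solvent by -0.093 to 0.011 and did not pass. MRPS30 rose at 100 nM for 24 h only (0.12, adjusted p 0.043), a call lost with any library but 7 or 8 left out (up to 0.20), under the common FPKM sum (0.023) and under the nuclear sum. Its divergent noncoding transcript MRPS30-DT, whose start lies 148 bases away, had 15.6 and 5.94 FPKM with 100 nM for 16 h against 2.22 and 2.33 in solvent (log2 difference 1.71, SE 0.41, adjusted p 0.016), while MRPS30 itself had 78.1 and 78.3 FPKM against 81.8 and 79.8. MRPS36 stayed between 18.6 and 26.8 FPKM and did not pass. MRPL12 and MRPS34, among the most abundant members, did not pass either: the MRPL12 differences were -0.041, 0.0073, -0.045 and 0.050 (SE 0.053).

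Between the doses few members differed. At 16 h 0 of 78 passed in the limma comparison of 100 nM with 20 nM, beside 0.320% of all genes called (0.0446% higher and 0.275% lower). At an unadjusted p under 0.05 there were 7 members, beside 12.1% of all genes. At 24 h MRPS12, MRPS33 and MRPL27 were higher at 100 nM and 0 members were lower, beside 1.82% of all genes higher and 3.06% lower (4.88% in all). The MRPL27 call was kept in 3 of 12 omissions (adjusted p up to 0.19), and that of MRPS33 was lost without library 8, 9 or 10 (up to 0.085). Between solvent at 24 h and at 16 h, MRPS23, MRPL23 and MRPL55 were lower and 0 members were higher, beside 2.47% of all genes lower and 3.14% higher (5.62% in all). The MRPL23 and MRPL55 calls were lost without library 5, 6, 11 or 12 (adjusted p up to 0.11 and 0.10). The effect of 20 nM differed between times for 5 members (11.5% of all genes, 7.06% with a larger and 4.46% with a smaller effect at 24 h), of which 3 were large subunit genes with a larger effect at 24 h and 2 were small subunit genes with a smaller one. The effect of 100 nM differed for 8 members (10.2% of all genes, 5.87% larger and 4.29% smaller), again with the 7 larger effects at 24 h in large subunit genes and the 1 smaller effect in MRPS6.

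Several members share their start region with another gene. Of 78 members, 34 had an opposite-strand gene start within 1000 bases, 21 of these with the genes pointing apart, and in 18 such cases both genes were tested. At 100 nM for 24 h, 11 of these 18 members rose, 5 of their neighbours rose and 1 fell, and in 5 cases both rose. Of all tested genes, 15.4% rose and 18.4% fell in that comparison. MRPL46 and MRPS11 are each other's neighbour, so this pair enters the 18 cases, and the 5 joint rises, once from each side. Both rose in 0 cases at 20 nM and 1 case at 100 nM for 16 h, and in 3 cases at 20 nM for 24 h. MRPL18 and TCP1, a subunit of the cytosolic chaperonin, are 63 bases apart and both rose at 24 h at each dose (TCP1 0.22 and 0.14). MRPL21 and the helicase gene IGHMBP2 are 7 bases apart and both rose at 24 h (IGHMBP2 0.48 and 0.28). MRPS34 and the nuclease gene EME2, 52 bases apart, did not go together: EME2 fell at both doses at 16 h (-0.70 and -0.58) and at 100 nM for 24 h (-0.58), and MRPS34 passed in none. MRPL46 and MRPS11 are a pair of members pointing apart, with 33 bases between their starts. MRPL46 rose at 100 nM for 16 h (0.22), MRPS11 rose at 20 nM for 24 h (0.36), and both rose at 100 nM for 24 h (0.27 and 0.32). All 4 calls were lost under the common FPKM sum and in 2 to 6 of the 12 omissions.

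Promoter windows from RefSeq (GRCh38.p14, 250 bases before to 50 after a start) were found for 69 members, in 85 windows. Motifs were searched as exact letters on both strands. The ETS-type letters CCGGAAG were in 38.8% of the members' windows, 10.3% of all 35116 windows and 17.5% of windows of tested protein-coding genes. The YY1-type letters AAGATGGC were in 27.1% of the members' windows, 2.89% of all and 5.00% of those of tested coding genes. The NRF1 core motif was in 11.8%, 5.78% and 10.2%, the full palindromic NRF1 motif, which is a case of the core and overlaps it, in 1.18%, 1.24% and 2.01%, and the E-box CACGTG in 10.6%, 7.26% and 9.53%. Among members with a window, CCGGAAG was in 10 of 22 that rose in 2 or more comparisons and in 15 of 26 that rose in none. A match is a description of letters and does not show a bound site.

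Stretches upstream of members described above are shown to place these letters, which are in capitals (the palindromic NRF1 motif in MRPL17, CCGGAAG in MRPL20, MRPL3 and MRPL47), together with the 33 bases between the GENCODE starts of MRPL46 and MRPS11, which holds none of them. All are from GRCh38 on the minus strand, 5′ to 3′. They lie at chr11:6683402-6683461 for MRPL17, the member with the largest rise at 20 nM for 24 h, at chr1:1407314-1407377 for MRPL20, which rose in 3 comparisons, at chr3:131502984-131503043 for MRPL3, the second most abundant member, at chr3:179604655-179604689 for MRPL47, and at chr15:88467420-88467452 for the pair.
MRPL17: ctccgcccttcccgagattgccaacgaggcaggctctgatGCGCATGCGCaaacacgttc
MRPL20: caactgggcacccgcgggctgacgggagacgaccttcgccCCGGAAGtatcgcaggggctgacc
MRPL3: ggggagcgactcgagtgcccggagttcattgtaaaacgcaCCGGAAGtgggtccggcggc
MRPL47: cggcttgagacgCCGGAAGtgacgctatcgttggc
MRPL46 and MRPS11: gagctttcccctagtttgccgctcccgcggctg
Counted from the RefSeq start, the capitals lie at -81 to -72 in MRPL17, -44 to -38 in MRPL20, and -32 to -26 in MRPL3. MRPL20 holds a further CCGGAAG at -21 to -15, of which only the first base is in the stretch shown.

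MRPL3, a protein near the peptidyl transferase centre, had 199 and 208 FPKM in solvent at 24 h, 247 and 248 with 20 nM, and 229 and 228 with 100 nM. Both treated groups were above solvent without overlap (log2 differences 0.28 and 0.16, SE 0.039, limma adjusted p 0.0012 and 0.011). The 100 nM call was lost without library 9 or 11 (adjusted p up to 0.079), under the common FPKM sum (0.068) and under the nuclear sum, and the 20 nM value was 0.093, without a call, under the common FPKM sum.

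Genes that work with the mitochondrial ribosome gave mixed counts at 100 nM for 24 h, where 15.4% of all tested genes rose and 18.4% fell. A list of 6 genes held mitoribosomal proteins with other names and OXA1L, the inner membrane insertase that binds the ribosome. Of these, 4 rose and 1 fell, and the 1 that fell was OXA1L, not a ribosomal protein (-0.28, limma adjusted p 0.0010). Of 28 assembly and rRNA modification factors, 7 rose and 1 fell (MRM2, an rRNA methyltransferase, 0.25, and the GTPase MTG1, -0.25). Of 18 translation factors, 3 rose and 1 fell. SLIRP and LRPPRC, partners that stabilise mitochondrial mRNA, went opposite ways in all 4 comparisons: SLIRP rose by 0.13, 0.11, 0.36 and 0.35, and LRPPRC fell, with differences of -0.34, -0.27, -0.20 and -0.38. Of 22 genes for mitochondrial aminoacyl-tRNA synthetases and related amidotransferase subunits, 4 rose and 3 fell, shares near those of all genes.

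Of 14 genes of mitochondrial transcription and DNA maintenance, 7 rose and 0 fell at 100 nM for 24 h, with TFB2M (0.43), the helicase TWNK (0.38) and TFAM (0.29) the largest. Of the 15 genes of mitochondrial DNA, 12 rose at 20 nM and 9 at 100 nM for 24 h, with MT-ND6 the largest at both (0.95 and 0.63). Of all tested genes, 14.7% and 15.4% rose in these comparisons. In solvent, 4 of the 15 were lower at 24 h than at 16 h and 0 were higher (median difference -0.21). Beside these, 2.47% of all genes were lower and 3.14% higher. The lower solvent level thus enters the 24 h differences of these genes. The rRNA genes MT-RNR1 and MT-RNR2 did not pass at 24 h, and MT-RNR2 fell at both doses at 16 h (-0.22 and -0.25). Of 80 tested cytosolic ribosomal protein genes, 33 rose and 2 fell at 20 nM and 33 rose and 0 fell at 100 nM for 24 h, with medians of 0.13 and 0.16 beside 0.11 and 0.16 for the mitochondrial members. These list counts are on the deposited scale. At 20 nM for 24 h the common FPKM sum moved the median of all tested genes from 0.002 to -0.16, so the rises listed there may depend on the scaling.

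Genes for factors that act on nuclear promoters of mitochondrial genes gave calls in both directions. Of 12 tested, 1 rose and 5 fell in each 16 h comparison. Of all genes, 6.78% rose and 11% fell at 20 nM there, and 9.16% rose and 14.7% fell at 100 nM. At 20 nM for 24 h, 1 rose and 0 fell, beside 14.7% and 14.1% of all genes. At 100 nM for 24 h, 2 rose and 3 fell, beside 15.4% and 18.4% of all genes. The shares that rose were thus near or below those of all genes. NRF1 itself differed by -0.060 to -0.0016 and did not pass. GABPA, the ETS factor of this group, fell at 100 nM for 24 h (-0.31, limma adjusted p 0.0035), as did its partner GABPB1 (-0.38), while YY1 rose (0.40, adjusted p 0.0098). These lists were chosen with earlier results of the data known.

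**Figure D5:**
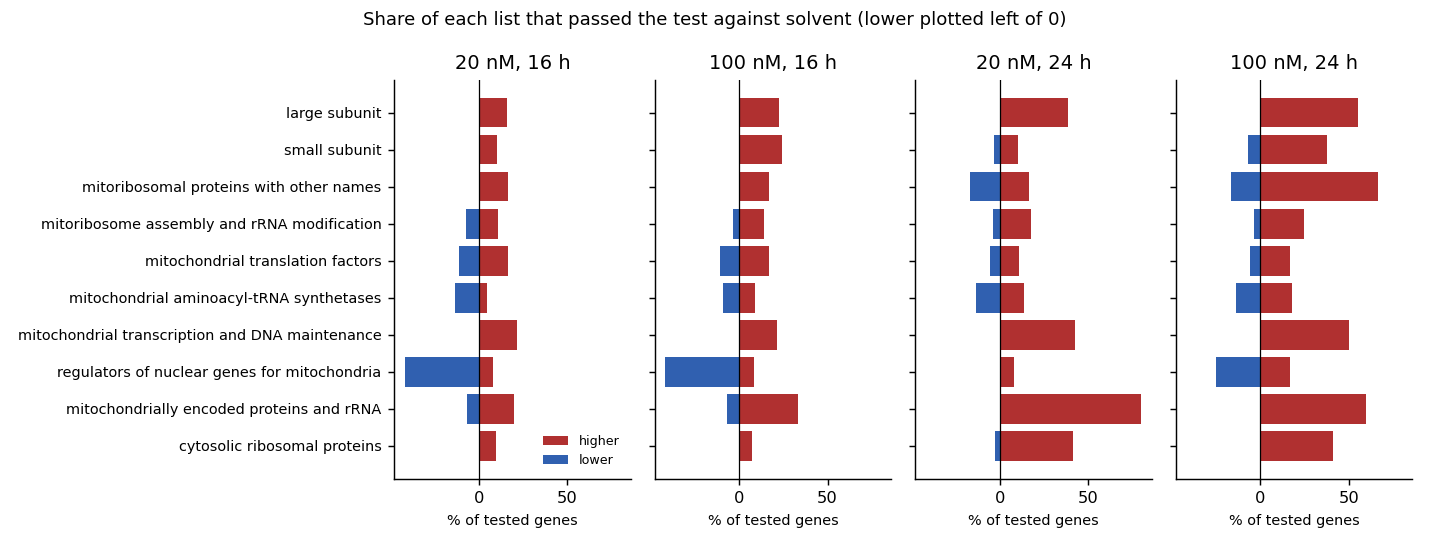
Percent of the tested genes of each list that passed the test against solvent, higher to the right and lower to the left of 0, in the 4 dose and time groups. At 24 h the 2 subunits, mitochondrial transcription genes, mitochondrially encoded genes and cytosolic ribosomal proteins lie mostly to the right, while the list of promoter factors has genes on both sides at 100 nM.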

How the data were processed

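The deposited table holds FPKM per gene for 12 libraries, rounded to 2 decimals; the authors made it with RSEM 1.2.28 and the GRCh38 build, per the submitters' processing notes. The aligner, annotation release and strand setting were not given in the sources used here. RNA was poly(A)-selected and libraries were directional, per the labels' protocols. Each column name holds a group and a number from 1 to 12; the libraries were used as unpaired members of their groups; nothing says that they came from separate cultures beyond wells treated in duplicate, so p-values measure the spread between these libraries, which may be technical.

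Symbols, types and positions came from GENCODE 29 by gene identifier (57836 of 58174 genes matched). Genes with at least 1 FPKM in at least 2 libraries (13458) were fitted as log2(FPKM + 1), so fold changes of low genes are understated, with limma 3.58.1 in R 4.3.3 over 6 group means, a mean-dependent prior (6 residual and 2.98 prior degrees of freedom), 9 two-sided contrasts and Benjamini-Hochberg adjustment over all tested genes. In simulated data for 100 nM against solvent at 24 h (13458 genes, 5 draws), the share of changed genes recovered was 48.4% at 1.25-fold, 92.0% at 1.5-fold and 99.6% at 2-fold. Few genes were changed there (250 per fold size over the 5 draws), none of them of low level, and the noise was normal. In the data 33.8% of all genes passed in that comparison, so these shares do not describe detection in the data.

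Among single-exon genes of 480 to 540 bases, between 91.3% and 97.4% of low FPKM lay within 0.15 reads of a whole number of reads; depth relative to the shallowest library was 1.00 to 1.74. The number of reads per gene was not recovered, so no counting interval is given.

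Members, lists and the choice of members were made with earlier results of these data known. Named in full were, in each comparison with solvent, up to 4 increases and 4 decreases among members that passed, whose group mean reached 2 FPKM and whose libraries did not overlap, up to 2 of each in the other contrasts, members that rose in at least 3 comparisons, the MRPS18 paralogs, MRPS30 with MRPS30-DT, MRPS36, and the 3 highest and lowest by level. RSEM divides reads among near-identical copies: 75 MRPL or MRPS pseudogenes in the table summed to 6.88 to 12.0 FPKM, and 5 reached 1 FPKM. Of 78 members, 23 overlap a gene on the same strand and 37 one on the opposite strand, and their values are uncertain to that extent. Alternatives were other pseudocounts, filters, priors, scalings (the sum over nuclear genes was added after seeing the data), single time points, another subunit assignment and each library left out.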

Additional observations from a re-analysis of the deposited data

Results flagged for a closer look

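For 11 members the effect of a dose differed between 24 h and 16 h by the test of that difference (limma, 2 libraries in each of 4 groups, log2 difference of effects, positive where the effect was larger at 24 h). At 20 nM these were MRPL17 at 0.78, MRPL23 at 0.28, MRPL19 at 0.25, MRPS33 at -0.29 and MRPS6 at -0.35. At 100 nM they were MRPL55 at 0.33, MRPL47 at 0.29, MRPL13 at 0.28, MRPL43 at 0.28, MRPL23 at 0.27, MRPL40 at 0.23, MRPL11 at 0.22 and MRPS6 at -0.35. The MRPL17 difference and both MRPS6 differences were kept with any 1 library left out and under the 3 other scalings, and the other 10 were lost in at least 1 omission. For MRPL23 and MRPL55, the solvent libraries themselves were lower at 24 h than at 16 h (-0.31 and -0.30, limma adjusted p 0.018 and 0.024), and this enters the difference of effects by construction. The same holds for MRPL17, whose solvent mean differed by -0.36 between these times without passing the test (adjusted p 0.062). For MRPL19 the solvent mean went from 60.1 FPKM at 16 h to 52.4 FPKM at 24 h, and the 20 nM mean from 58.9 to 61.3 FPKM. Any change of solvent between times enters the difference of effects of the other members listed too.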

How the results depend on the processing

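No paired analysis was possible because the table's columns carry a library number but not the sample numbers of the labels. With pseudocounts of 0.1 or 0.5 every named member kept its direction and its side of the threshold. The number of members called moved by over 1.5 times in these cases, and the cause was not tested. With no filter on low values it was 4 and 7 at 16 h (20 nM, 100 nM), 15 at 20 nM for 24 h, 1 between doses at 24 h, 1 between solvent times, and 2 and 1 for the differences of effects at 20 nM and 100 nM. With a constant prior it was 5 and 9 at 16 h, 1 between doses at 24 h, and 2 and 1 for the differences of effects. With a common FPKM sum it was 7 at 100 nM for 16 h, 18 at 100 nM for 24 h, 14 between doses at 24 h, and 14 and 2 for the differences of effects. With the nuclear sum it was 25 at 100 nM for 24 h, 10 between solvent times and 2 for the 100 nM difference of effects. With median-of-ratios scaling it was 17 at 20 nM for 16 h, 7 between doses at 24 h and 9 between solvent times. With a filter of 5 FPKM it was 10 between solvent times and 8 for the 20 nM difference of effects. With 1 time point fitted alone, which leaves fewer samples, it was 26 at 100 nM for 24 h and 0 between doses at 24 h.

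With 1 library left out, the count ranged from 1 to 16 and from 3 to 21 at 16 h (20 nM, 100 nM), from 12 to 34 and from 18 to 45 at 24 h, was 0 between doses at 16 h, and ranged from 0 to 14 between doses at 24 h and between solvent times, from 2 to 7 for the 20 nM and from 1 to 9 for the 100 nM difference of effects. Large minus small medians ranged from 0.040 to 0.076 and from -0.022 to 0.0095 at 16 h, from 0.015 to 0.068 and from 0.056 to 0.10 at 24 h, from -0.023 to 0.0051 and from -0.045 to -0.011 between doses (16 h, 24 h), from -0.056 to -0.034 between solvent times, and from 0.041 to 0.11 and from -0.013 to 0.10 for the differences of effects. With MRPS30 and MRPS18A as large and MRPS36 left out they were 0.058 and -0.024 at 16 h, and -0.019 and -0.0010 between doses.

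The log2 ratio of summed large subunit FPKM was 0.12 and 0.13 at 16 h and 0.22 at 100 nM for 24 h with median-of-ratios scaling. With the common sum it was 0.055 at 100 nM for 16 h, and -0.053 and 0.094 at 24 h; with the nuclear sum it was 0.067 and 0.12 at 24 h. For small subunit genes these values were 0.094, 0.13 and 0.17, then 0.062, -0.11 and 0.039, then 0.012 and 0.065. MRPS18B at 20 nM for 24 h turned to -0.051 under the common sum. The number of reads per gene is unknown, and 2 libraries a group limit what could be detected.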
